A study of Homo sapiens with 8 samples.

Results

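*ABRAXAS1* and *BCCIP* are 2 of the 92 genes whose expression was measured after the dosage of 4 other genes had been changed by CRISPR, and they were taken by name. Both encode partners of the BRCA proteins. The cells were K562, a human line that grew from an erythroleukaemia. One line carried CRISPRi, which represses transcription where an sgRNA directs it, and the other carried CRISPRa, which activates it. The CRISPRa line was grown from 1 clone. Each line was transduced with different titers of the same lentiviral library, and 1 batch was selected by its infection rate, at about 1 sgRNA per cell. This culture was kept under blasticidin and puromycin, was sorted to remove dead cells, and was collected on day 8. The sgRNAs targeted *GFI1B*, *MYB*, *NFE2* or *TET2*, here called *cis* genes, and the control cells of both lines carried non-targeting control (NTC) sgRNAs under the same drugs. The cells were labelled with 8 hashing tags and run on 2 10X lanes.

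ABRAXAS1 is the scaffold of the BRCA1-A complex, which carries BRCA1 to ubiquitin chains at DNA double-strand breaks and restrains the trimming of the broken ends. BCCIP was found as a protein that binds BRCA2 and the cell cycle inhibitor p21, and it takes part in repair by homologous recombination. Of the *cis* genes, *GFI1B* encodes a transcriptional repressor needed for erythroid and megakaryocytic development, *MYB* a factor that keeps blood progenitors dividing, *NFE2* a factor of megakaryocyte and globin gene expression, and *TET2* an enzyme of DNA demethylation that served as a control. A list of 26 other genes of the BRCA1-A complex and of homologous recombination was drawn up, and 0 of the 26 were measured, so nothing can be said of the rest of that pathway. Erythroid identity could not be checked from these files, because fold changes hold no expression levels.

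Each value is the log2 fold change, log2(FC), of a gene in the cells with 1 sgRNA in 1 line, over the NTC cells of the same line. There were 181 such perturbations from 91 sgRNAs, 91 in CRISPRi and 90 in CRISPRa, so both genes together had 362 values with 0 missing. A perturbation held between 11 and 567 cells in CRISPRi (median 86.0) and between 12 and 495 in CRISPRa (median 79.5), and fewer than 30 cells in 3 and 4 of them. All values of a line share the same NTC cells, 536 in CRISPRi and 323 in CRISPRa, so an error in those cells moves every value of that line by the same amount. Each perturbation was measured once. Within a line, p-values measure the spread between sgRNAs of 1 culture. Those over both lines permute the perturbations of both cultures together, without regard to line, so an offset between the lines enters them. Nearly every sgRNA enters them once per line. Values of r centred and permuted within line are given at the end. The dosage of a *cis* gene means its own log2(FC) in the same cells. The study chose its measured genes, *cis* genes and controls aside, from those affected by inhibition of *GFI1B* or *NFE2* in earlier work. *ABRAXAS1* and *BCCIP* are among them, so a relation with *GFI1B* or *NFE2* was likely beforehand. Each result is therefore set beside the share of all genes that passed the same test.

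The listed capture baits show where the panel was designed to pull the cDNA of each gene out of the libraries. The list holds 4567 baits, more than the paper states for its final panel after probes of low coverage were dropped. The bait counts here and in the next paragraph may therefore not be those of the panel used. *ABRAXAS1* (ENSG00000163322) is a minus-strand gene of chromosome 4 (83459517 to 83523348, hg38, GENCODE 44), and its canonical transcript of 9 exons has 4210 bases, of which 1227 are coding. *BCCIP* (ENSG00000107949) is a plus-strand gene of chromosome 10 (125823546 to 125853695), and its canonical transcript of 7 exons has 1234 bases, of which 942 are coding. *ABRAXAS1* had 60 baits and *BCCIP* had 36. An annotated transcript of the gene held 59 and 36 of them, all in the sense direction, and the baits covered 87.8% and 87.5% of the canonical transcripts. The bait that lies wholly in coding sequence nearest the start codon is shown for each gene. That of *ABRAXAS1* spans exons 2 to 3, between 83476646 and 83482239, and that of *BCCIP* spans exons 1 to 2, between 125823666 and 125826653.
ABRAXAS1 bait: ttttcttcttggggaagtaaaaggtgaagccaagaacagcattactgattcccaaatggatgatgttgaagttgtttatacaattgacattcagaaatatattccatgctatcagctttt
BCCIP bait: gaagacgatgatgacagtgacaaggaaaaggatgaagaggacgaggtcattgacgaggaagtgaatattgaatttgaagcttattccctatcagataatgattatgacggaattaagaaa

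Both genes overlap a neighbour on the other strand. *MRPS18C*, a mitochondrial ribosomal protein gene, overlaps 10219 bases of *ABRAXAS1*, and 20 of the 60 baits touch its exons. *DHX32*, a helicase gene, overlaps 17359 bases of *BCCIP*, and 4 of the 36 baits touch its exons. Neither neighbour was measured, and whether their reads could enter the counts is not given in the sources used here. *UROS*, a heme synthesis gene, starts divergently just before *BCCIP* and was not measured.

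The sgRNAs on which the results below turn are shown with the protospacer in lower case and the PAM in capitals, 5′ to 3′, and all matched hg38. GFI1B_13 (chr9:132978739-132978761, plus strand) and GFI1B_14 (chr9:132978795-132978817, minus strand) lie in the 5′ UTR of exon 1 of *GFI1B*, and GFI1B_7 (chr9:132978887-132978909, minus strand) lies in an intron. MYB_14 (chr6:135181383-135181405, plus strand) lies in the 5′ UTR of exon 1 of *MYB*, MYB_15 (chr6:135181509-135181531, plus strand) partly in the coding part of exon 1, and MYB_12 (chr6:135181884-135181906, minus strand) in an intron of *MYB*. NFE2_16 (chr12:54304619-54304641, plus strand) and NFE2_17 (chr12:54304618-54304640, minus strand) lie upstream of *NFE2*, within the gene *COPZ1*. They face each other over 22 shared bases, so they target 1 site.
GFI1B_13: gagtcacacagttgacagagTGG
GFI1B_14: ggttctgccggagcttcccgAGG
GFI1B_7: tgaagccacctgcggcgcacAGG
MYB_14: gaaacttcgccccagcggtgCGG
MYB_15: gcgccatggcccgaagacccCGG
MYB_12: ggatccctcgccgacacccgCGG
NFE2_16: cgggcggttaccccgatgctTGG
NFE2_17: caagcatcggggtaaccgccCGG

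The sgRNAs of *TET2* give the size of changes that come when no factor of this network is targeted. The log2(FC) of *MYB* itself lay between −0.025 and 0.14 over them in CRISPRi, and between −0.053 and 0.16 in CRISPRa. Over the 20 *TET2* sgRNAs in CRISPRi, *ABRAXAS1* lay between −0.098 and 0.094 (median 0.020, SD 0.052). Over the 20 in CRISPRa it lay between −0.13 and 0.094 (median 0.0088, SD 0.066). *BCCIP* was far steadier, from −0.021 to 0.025 in CRISPRi (SD 0.013) and from −0.037 to 0.055 in CRISPRa (SD 0.021). Ordered from the steadiest of 91 genes, *BCCIP* was 13th in CRISPRi and 15th in CRISPRa, and *ABRAXAS1* was 49th and 48th, near the middle. *GAPDH*, the highly expressed control, had SDs of 0.0071 and 0.011. A small log2(FC) of *BCCIP* can therefore stand out where the same value of *ABRAXAS1* cannot. The spread of *ABRAXAS1* was 0.050 among the 20 *TET2* perturbations with the fewest cells and 0.062 among the 20 with the most.

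Each value is over the NTC cells of its own line, so the order below compares no expression levels between lines. The log2(FC) values of *ABRAXAS1* were highest with *MYB* sgRNAs in CRISPRi, where the mean was 0.093 ± 0.065 (SD, n = 24 sgRNAs). They were followed by *GFI1B* in CRISPRa (0.025 ± 0.082, n = 25), *NFE2* in CRISPRi (0.022 ± 0.039, n = 22), *TET2* in CRISPRi (0.015 ± 0.052, n = 20), *TET2* in CRISPRa (−0.0019 ± 0.066, n = 20), *MYB* in CRISPRa (−0.026 ± 0.063, n = 24), *GFI1B* in CRISPRi (−0.030 ± 0.085, n = 25) and *NFE2* in CRISPRa (−0.050 ± 0.063, n = 21). *BCCIP* was highest with *NFE2* sgRNAs in CRISPRa (0.022 ± 0.013, n = 21), then with *GFI1B* in CRISPRa (0.012 ± 0.026, n = 25), *TET2* in CRISPRa (0.0097 ± 0.021, n = 20), *MYB* in CRISPRa (0.0067 ± 0.022, n = 24), *TET2* in CRISPRi (0.0033 ± 0.013, n = 20) and *NFE2* in CRISPRi (−0.0048 ± 0.0078, n = 22). It was lowest with *MYB* in CRISPRi (−0.023 ± 0.031, n = 24) and *GFI1B* in CRISPRi (−0.051 ± 0.038, n = 25). For both genes, neighbours in this order differed by less than the larger of their SDs.

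**Figure D1:**
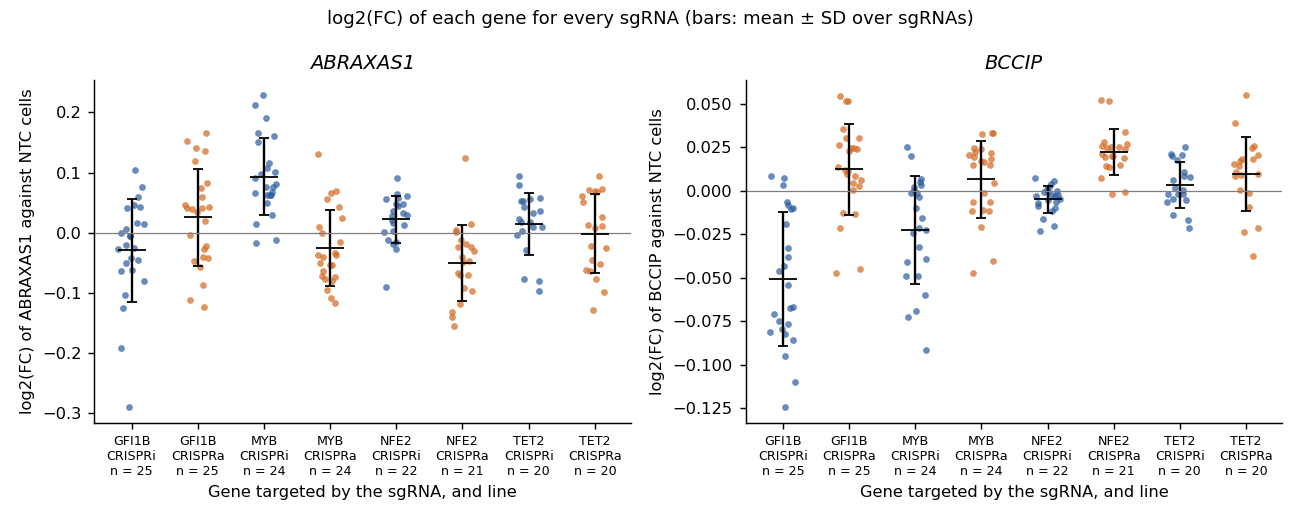
log2(FC) against NTC cells (vertical axis) of *ABRAXAS1* and *BCCIP* for every sgRNA, 1 point each, by targeted gene and line (blue CRISPRi, orange CRISPRa), with bars for the mean ± SD over sgRNAs. *ABRAXAS1* is above 0 for 22 of 24 *MYB* sgRNAs in CRISPRi, and *BCCIP* is below 0 for 22 of 25 *GFI1B* sgRNAs in CRISPRi. The vertical axes differ between the panels.

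Repression of *MYB* went with more *ABRAXAS1* RNA. The 2 sgRNAs at the *MYB* TSS, MYB_14 and MYB_15, took *MYB* to −0.94 and −0.94, and *ABRAXAS1* stood at 0.23 and 0.21, its 2 highest values over all 181 perturbations. For the 8 perturbations with a *MYB* dosage between −1 and −0.5, *ABRAXAS1* lay between 0.097 and 0.23 (median 0.16), and all 8 were above 0. Taken from the log2(FC), their mean was 112% of the NTC level. Such percentages assume base 2 for the log and carry the constant added before it, so they are not plain shares of expression. For the 10 with a dosage between −0.5 and −0.1 the mean was 0.070 ± 0.044, for the 18 between −0.1 and 0.1 it was 0.0037 ± 0.050, and for the 12 above 0.1 it was −0.040 ± 0.069. The values fell from band to band as *MYB* rose, and the 8 at the lowest dosage all lay above those of the 12 at the highest.

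Over the 48 *MYB* perturbations, Pearson's r of *ABRAXAS1* with *MYB* dosage was −0.80 (adjusted p = 2.94e-05, permutation test, Benjamini-Hochberg over 364 relations) and Spearman's rho was −0.79 (adjusted p = 2.82e-05, permutation test). The raw p of 1e-05 is the smallest that 100000 permutations can give. The relation was in the same direction in both lines, with r = −0.76 in CRISPRi (adjusted p = 8.09e-05, permutation test, n = 24) and r = −0.64 in CRISPRa (adjusted p = 0.00562, permutation test, n = 24). Without the 2 perturbations farthest from the median dosage r was −0.74. Against the *TET2* sgRNAs of CRISPRi, the mean of the *MYB* sgRNAs was higher by 0.079 (adjusted p = 0.000552, permutation test over 540 comparisons), and in CRISPRa the difference was −0.024 (adjusted p = 0.361, permutation test). Of all genes, 81.3% were related to *MYB* dosage over both lines, 78.0% in CRISPRi and 40.7% in CRISPRa, and 65.6% and 6.67% differed from the *TET2* sgRNAs in CRISPRi and CRISPRa. *ABRAXAS1* was 35th of 91 by the size of r. Most related genes rose with *MYB* dosage (50 of 74), and *ABRAXAS1* was among the 24 that went the other way.

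*ABRAXAS1* fell by 0.14 ± 0.025 (slope ± jackknife SE) for each unit of *MYB* log2(FC) in CRISPRi, a slope of −0.14, and the slope in CRISPRa was −0.43 ± 0.096. The difference, CRISPRa minus CRISPRi, was −0.29 (adjusted p = 0.0356, permutation test), and 18.7% of genes had slopes on *MYB* that differed between the lines. This difference rested on 1 perturbation. MYB_12 in CRISPRa, with *MYB* at −0.23 and *ABRAXAS1* at 0.13, lay far from the other CRISPRa dosages, and without it the difference was −0.21 with an unadjusted p of 0.140 (permutation test). Leaving out any other perturbation kept the unadjusted p under the threshold. *ABRAXAS1* also stood above 0 in CRISPRi where *MYB* was nearly unchanged. At a *MYB* dosage between −0.1 and 0.1, the 6 CRISPRi perturbations had a mean of 0.046 ± 0.033 and the 12 CRISPRa perturbations a mean of −0.017 ± 0.044. The 3 *NFE2* perturbations of CRISPRi in the same range of *NFE2* dosage had a mean of 0.046 ± 0.014, the 3 of *GFI1B* a mean of 0.032 ± 0.049, and the 4 of *TET2* a mean of 0.0063 ± 0.066. An error of the shared NTC cells cannot be told apart from an effect of the line in such offsets.

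*BCCIP* fell with *MYB*, and the log2(FC) of the control gene *GAPDH* fell by a similar size. With MYB_14 and MYB_15 in CRISPRi, *BCCIP* was at −0.092 and −0.072, while *GAPDH* was at −0.079 and −0.055 and the median of the other genes at −0.079 and −0.049. For the 8 perturbations with a *MYB* dosage between −1 and −0.5, *BCCIP* ranged from −0.092 to −0.039, all below 0, and had a mean of 96.0% of the NTC level. Over the 48 perturbations r was 0.83 (adjusted p = 2.94e-05, permutation test) and rho was 0.67 (adjusted p = 2.82e-05, permutation test). It was 0.77 without the 2 farthest perturbations. It was 0.87 in CRISPRi (adjusted p = 4.33e-05, permutation test, n = 24) and 0.55 in CRISPRa, the latter with an adjusted p of 0.0252 (permutation test, n = 24) and down to 0.37 without MYB_12, with an unadjusted p of 0.083 (permutation test). The mean of the *MYB* sgRNAs in CRISPRi was lower than that of *TET2* by 0.026, a difference of −0.026 (adjusted p = 0.00363, permutation test), and in CRISPRa the difference was −0.0031 (adjusted p = 0.749, permutation test).

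In the same 24 CRISPRi perturbations, *GAPDH* had a mean of −0.022 ± 0.024 and an r of 0.96 with *MYB* dosage, and the median of the other genes had a mean of −0.022 ± 0.025 and an r of 0.93. *BCCIP* had a mean of −0.023. When the log2(FC) of the median gene was subtracted in each perturbation, a scale chosen after seeing the data, the r of *BCCIP* with *MYB* dosage dropped to 0.38 over both lines (adjusted p = 0.0129, permutation test) and to 0.30 in CRISPRi (adjusted p = 0.260, permutation test). Its difference from the *TET2* sgRNAs in CRISPRi became −0.0018 (adjusted p = 0.742, permutation test). Relative to *GAPDH* the r was 0.37 over both lines (adjusted p = 0.0173, permutation test) and 0.29 in CRISPRi (adjusted p = 0.287, permutation test), and the difference was −0.00087. Over both lines, r thus still passed the test on both scales. In CRISPRa the r was 0.34 and 0.28 on these scales, and neither passed the test (adjusted p = 0.216 and 0.353, permutation test). Within each line, the fall of *BCCIP* at low *MYB* was thus not distinguished from the shift common to the measured genes. On both scales the relation of *ABRAXAS1* with *MYB* was at least as close as before, with an r of −0.86 relative to the median gene and −0.85 relative to *GAPDH*, and its difference from the *TET2* sgRNAs in CRISPRi was 0.10 on each. The median gene and *GAPDH* rose with *MYB* dosage, so subtracting them makes the slope of every gene on *MYB* more negative. The closer r of *ABRAXAS1* is thus in part built into these scales and gives no separate support.

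**Figure D2:**
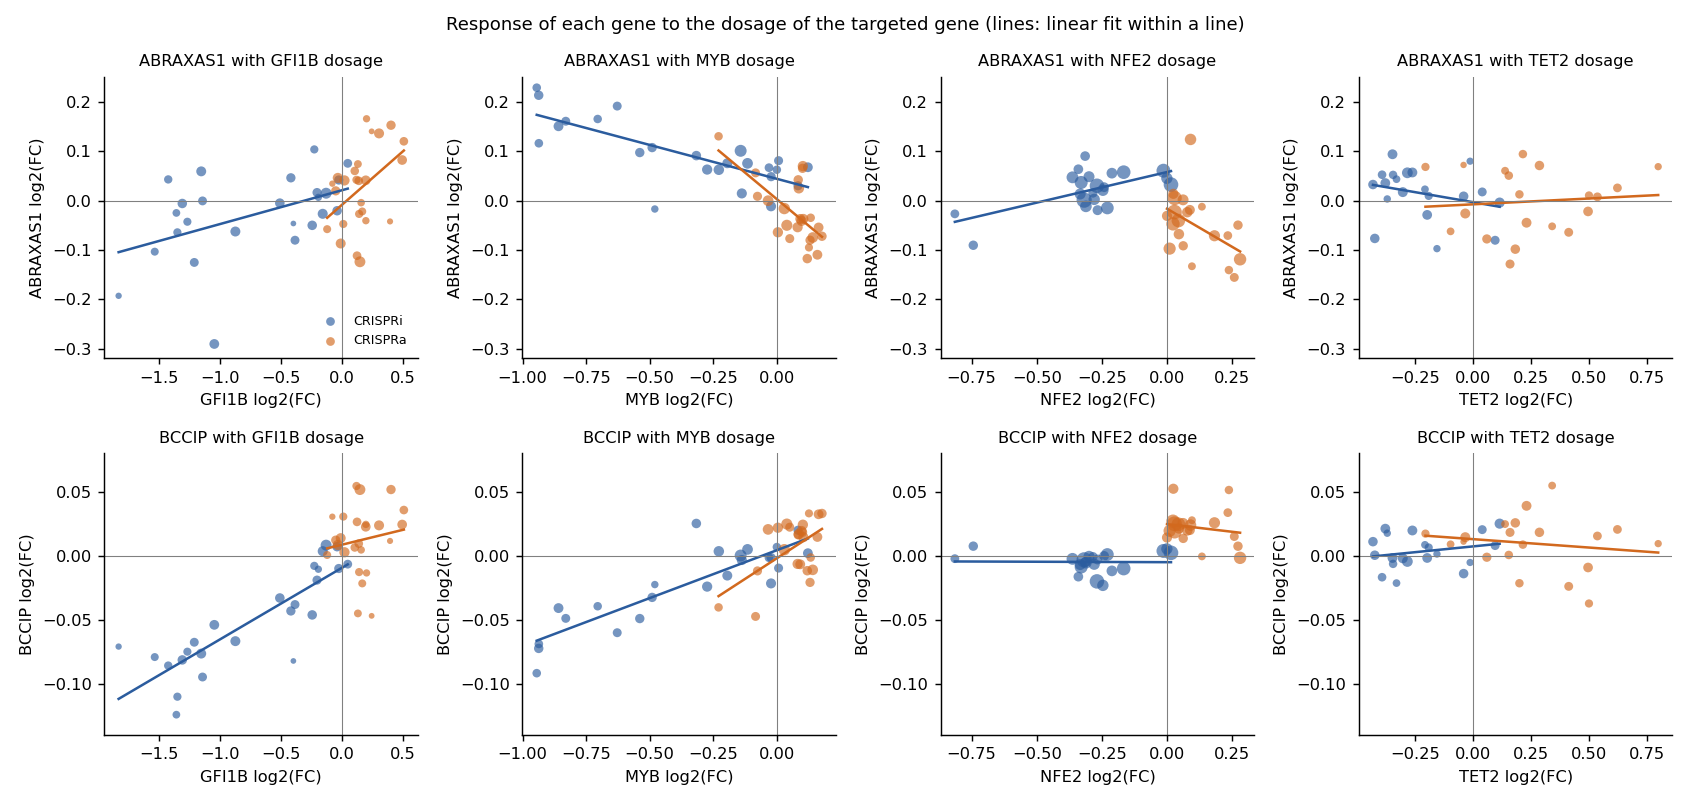
log2(FC) of *ABRAXAS1* (top) and *BCCIP* (bottom) against the log2(FC) of the targeted gene in the same cells, 1 point per sgRNA with a larger area for more cells, with a linear fit within CRISPRi (blue) and CRISPRa (orange). With *MYB* dosage the 2 genes run in opposite directions, where *GAPDH* and the median gene also fell with *MYB*. With *GFI1B* dosage both rise over both lines, but within CRISPRa neither relation passed the test. With *TET2* dosage neither relation passed the test.

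Repression of *GFI1B* went with less *BCCIP* RNA. With the TSS sgRNAs GFI1B_13 and GFI1B_14 in CRISPRi, *GFI1B* was at −1.14 and −1.35 and *BCCIP* at −0.095 and −0.11. The lowest value, −0.12, was that of GFI1B_24 in 38 cells, at 91.7% of the NTC level. All 11 perturbations with a *GFI1B* dosage below −1 had *BCCIP* below 0, from −0.12 to −0.054, with a mean of −0.084 ± 0.020, which is 94.4% of the NTC level. The 10 with a dosage between −0.5 and −0.1 had a mean of −0.023 ± 0.029, the 9 between −0.1 and 0.1 a mean of 0.0099 ± 0.014 and the 18 above 0.1 a mean of 0.012 ± 0.030. The fall was larger where more *GFI1B* was lost, and the means of the last 2 bands differed by less than their SDs. A fold change over pooled cells cannot tell fewer cells with *BCCIP* RNA apart from less of it per cell.

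Over the 50 *GFI1B* perturbations, r of *BCCIP* with dosage was 0.85 (adjusted p = 2.94e-05, permutation test) and rho was 0.76 (adjusted p = 2.82e-05, permutation test). It was 0.86 without the 2 perturbations farthest from the median dosage. It was 0.85 in CRISPRi (adjusted p = 4.33e-05, permutation test, n = 25) and 0.15 in CRISPRa (adjusted p = 0.649, permutation test, n = 25), with slopes of 0.056 ± 0.0091 and 0.023 ± 0.023 (jackknife SE). The difference of the slopes, −0.033, did not pass the test (adjusted p = 0.479, permutation test), while 65.9% of genes had slopes on *GFI1B* that differed between the lines. It changed sign relative to the median gene (0.061, adjusted p = 0.0952, permutation test) and to *GAPDH* (0.075, adjusted p = 0.0650, permutation test). Against the *TET2* sgRNAs, *BCCIP* was lower in CRISPRi, with a difference of −0.054 (adjusted p = 0.000106, permutation test), and in CRISPRa the difference was 0.0025 (adjusted p = 0.810, permutation test). The background was 76.9% of genes related to *GFI1B* dosage over both lines, 71.4% in CRISPRi and 65.9% in CRISPRa, and 63.3% and 44.4% that differed from *TET2* in CRISPRi and CRISPRa. *BCCIP* was 16th of 91 genes by the size of r.

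In CRISPRi and over both lines, this relation held relative to the other genes. *GAPDH* in the *GFI1B* perturbations of CRISPRi had a mean of 0.00018 ± 0.0085, with the highest value at 0.015 and the lowest at −0.011. There *GAPDH* and the median gene also fell with *GFI1B*, with r of 0.76 and 0.78. Relative to the median gene, the difference of *BCCIP* from *TET2* in CRISPRi was −0.049 (adjusted p = 0.000108, permutation test) and r over both lines was 0.87. Within CRISPRi r was 0.77 on this scale (adjusted p = 8.99e-05, permutation test) and 0.77 relative to *GAPDH* (adjusted p = 8.37e-05, permutation test). In CRISPRa the scale mattered. The highest *GFI1B* dosages went with lower *GAPDH*, to −0.067 with GFI1B_5. Relative to the median gene, r of *BCCIP* in CRISPRa rose from 0.15 to 0.65 (adjusted p = 0.00225, permutation test), and relative to *GAPDH* to 0.62 (adjusted p = 0.00484, permutation test). The median gene and *GAPDH* themselves had r of −0.71 and −0.69 with *GFI1B* dosage in CRISPRa. Subtracting them gives a positive r to a gene that does not change, so these values do not show a rise of *BCCIP* itself. *MYB* itself moved in these perturbations. It was above 0 for 25 of 25 *GFI1B* sgRNAs in CRISPRi, with a mean of 0.22 ± 0.098, and in CRISPRa it went down to −1.01 with GFI1B_20 and −0.95 with GFI1B_5. Within CRISPRi the r of *BCCIP* was −0.85 with *MYB* log2(FC) and 0.85 with *GFI1B* dosage over the same 25 perturbations, so the part of each cannot be told apart there.

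*ABRAXAS1* also fell with *GFI1B*, with more scatter. The 11 perturbations with a *GFI1B* dosage below −1 had *ABRAXAS1* between −0.29 and 0.059, with a median of −0.043, and 9 of 11 were below 0. The 18 with a dosage above 0.1 lay between −0.12 and 0.17 (median 0.041), and 11 of 18 were above 0, so the ranges overlapped widely. The lowest value of *ABRAXAS1* in the series, −0.29, came with GFI1B_7 in CRISPRi, in 96 cells, where *GFI1B* was at −1.04. GFI1B_8, with *GFI1B* lower still at −1.42, had *ABRAXAS1* at 0.043, and the TSS sgRNAs GFI1B_13 and GFI1B_14 had it at −0.00080 and −0.065. GFI1B_21, with the lowest *GFI1B*, had *ABRAXAS1* at −0.19, the second lowest value, so the order of *ABRAXAS1* followed that of *GFI1B* only in part.

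The r of *ABRAXAS1* with *GFI1B* dosage was 0.50 over 50 perturbations (adjusted p = 0.000387, permutation test) and rho was 0.46 (adjusted p = 0.00196, permutation test), 61st of 91 genes by the size of r. Without the 2 farthest perturbations it was 0.40. It was 0.47 in CRISPRi (adjusted p = 0.0354, permutation test, n = 25) and 0.45 in CRISPRa (adjusted p = 0.0693, permutation test, n = 25). The CRISPRi value rested on GFI1B_21, with 17 cells and *GFI1B* at −1.83, without which r was 0.37 with an unadjusted p of 0.0698 (permutation test). Relative to the median gene, r was 0.41 in CRISPRi (adjusted p = 0.0841, permutation test) and 0.57 in CRISPRa (adjusted p = 0.0140, permutation test). The differences of the means from *TET2* were −0.044 in CRISPRi (adjusted p = 0.0988, permutation test) and 0.027 in CRISPRa (adjusted p = 0.371, permutation test). The slope was 0.069 ± 0.026 in CRISPRi and 0.22 ± 0.077 in CRISPRa (jackknife SE), and their difference of 0.15 had an adjusted p of 0.296 (permutation test). The difference was 0.24 relative to the median gene (adjusted p = 0.0560, permutation test) and 0.26 relative to *GAPDH* (adjusted p = 0.0448, permutation test). In CRISPRa the median gene and *GAPDH* fell as *GFI1B* rose, so subtracting them raises the slope of any gene on *GFI1B* there. Within CRISPRa, the r of *ABRAXAS1* with *MYB* log2(FC) over the *GFI1B* perturbations was −0.40. With GFI1B_20 and GFI1B_5, which had the least *MYB*, *ABRAXAS1* was at 0.12 and 0.082.

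**Figure D3:**
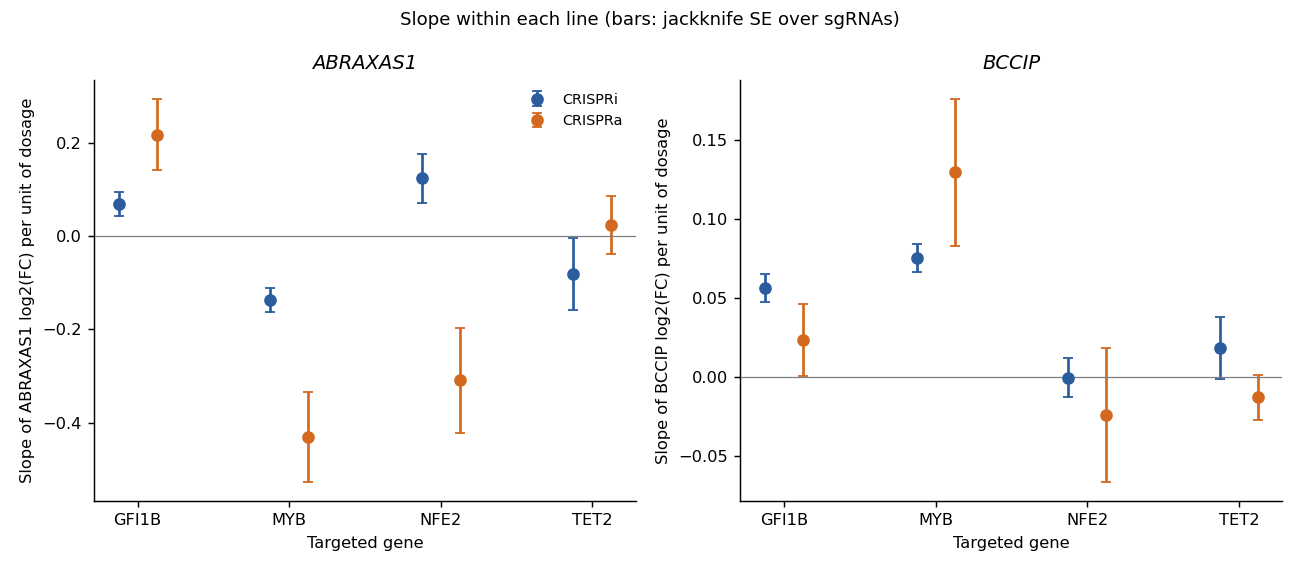
Slope of *ABRAXAS1* and of *BCCIP* log2(FC) per unit of the log2(FC) of the targeted gene, within CRISPRi (blue) and CRISPRa (orange), with bars for the jackknife SE over sgRNAs. The slope of *ABRAXAS1* on *MYB* is below 0 in both lines, and that on *NFE2* is 0.12 in CRISPRi and −0.31 in CRISPRa.

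With *NFE2*, the relations over both lines did not pass the test in the same direction within either line. For *ABRAXAS1* r was −0.40 over 43 perturbations (adjusted p = 0.0147, permutation test) and rho was −0.54 (adjusted p = 0.000494, permutation test), against 64.8% of genes related to *NFE2* dosage. Without the 2 perturbations farthest from the median dosage, NFE2_16 and NFE2_17 in CRISPRi, r was −0.63. Within CRISPRi r was 0.60, with the opposite sign (adjusted p = 0.0118, permutation test, n = 22), and within CRISPRa it was −0.46 (adjusted p = 0.0864, permutation test, n = 21), where 31.9% and 29.7% of genes passed the test. The slopes of 0.12 ± 0.052 and −0.31 ± 0.11 (jackknife SE) differed by −0.43 (adjusted p = 0.00611, permutation test), as did those of 22.0% of genes. The CRISPRi value rested on the enhancer sgRNAs. NFE2_16 and NFE2_17 took *NFE2* to −0.74 and −0.81 and had *ABRAXAS1* at −0.091 and −0.027, while the other 20 had *NFE2* between −0.36 and 0.016. Without both, r in CRISPRi was 0.18 (adjusted p = 0.558, permutation test) and the difference of the slopes was −0.36 (adjusted p = 0.0677, permutation test), both chosen after seeing the data. The pair at the *NFE2* TSS had *ABRAXAS1* at 0.047 and 0.063 in CRISPRi, and at 0.12 and −0.14 in CRISPRa, where NFE2_14 held the highest value of its group.

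In CRISPRa, all 7 perturbations with *NFE2* above 0.1 had *ABRAXAS1* below 0, from −0.16 with NFE2_7 to −0.013, with a mean of 94.0% of the NTC level. The mean of the 21 *NFE2* sgRNAs of CRISPRa was lower than that of *TET2*, with a difference of −0.048 that missed the threshold (adjusted p = 0.0550, permutation test), and in CRISPRi the difference was 0.0073 (adjusted p = 0.725, permutation test). The background was 13.3% and 42.2% of genes. The CRISPRa difference was −0.052 relative to the median gene (adjusted p = 0.0419, permutation test) and −0.026 when weighted by cells (adjusted p = 0.383, permutation test).

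The log2(FC) of *BCCIP* with *NFE2* sgRNAs lay higher in CRISPRa than in CRISPRi, and its relation with *NFE2* did not pass the test within either line. Each line is set over its own NTC cells, so an error of those cells cannot be told apart from an effect of the line. With *TET2* sgRNAs the mean of *BCCIP* was also higher in CRISPRa (0.0097) than in CRISPRi (0.0033). The r of *BCCIP* with *NFE2* dosage was 0.60 over 43 perturbations (adjusted p = 7.64e-05, permutation test) and rho was 0.69 (adjusted p = 2.82e-05, permutation test), and r was 0.70 without the 2 farthest. But r was −0.017 within CRISPRi (adjusted p = 0.961, permutation test, n = 22) and −0.17 within CRISPRa (adjusted p = 0.627, permutation test, n = 21). In CRISPRi 17 of 22 values were below 0 and in CRISPRa 19 of 21 were above 0. Where *NFE2* was between −0.1 and 0.1, the 14 CRISPRa values had a mean of 0.024 ± 0.0093 and the 3 CRISPRi values a mean of 0.0038 ± 0.0015. With NFE2_16 and NFE2_17 in CRISPRi, where *NFE2* was lowest, *BCCIP* was at 0.0075 and −0.0023, and without both, chosen after seeing the data, r in CRISPRi was 0.43 (adjusted p = 0.105, permutation test, n = 20). The differences from *TET2* were −0.0081 in CRISPRi (adjusted p = 0.0484, permutation test) and 0.012 in CRISPRa (adjusted p = 0.0646, permutation test), and the first was −0.0071 relative to the median gene (adjusted p = 0.0758, permutation test) and −0.0014 relative to *GAPDH* (adjusted p = 0.788, permutation test). Weighted by cells it was −0.0095 (adjusted p = 0.0178, permutation test). The slopes were −0.00069 ± 0.012 in CRISPRi and −0.024 ± 0.042 in CRISPRa (jackknife SE).

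With *TET2* dosage, neither gene passed the test. The r was −0.13 for *ABRAXAS1* (adjusted p = 0.520, permutation test, n = 40) and 0.11 for *BCCIP* (adjusted p = 0.582, permutation test, n = 40), with rho of −0.17 (adjusted p = 0.369, permutation test) and 0.18 (adjusted p = 0.333, permutation test), and r of −0.25 and 0.067 without the 2 farthest. Their slopes over both lines were −0.024 ± 0.029 and 0.0060 ± 0.010 (jackknife SE). Of all genes, 11.0% were related to *TET2* dosage. The dosage of *TET2* reached from −0.43 to 0.80, which is a wider span than that of *MYB*.

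**Figure D4:**
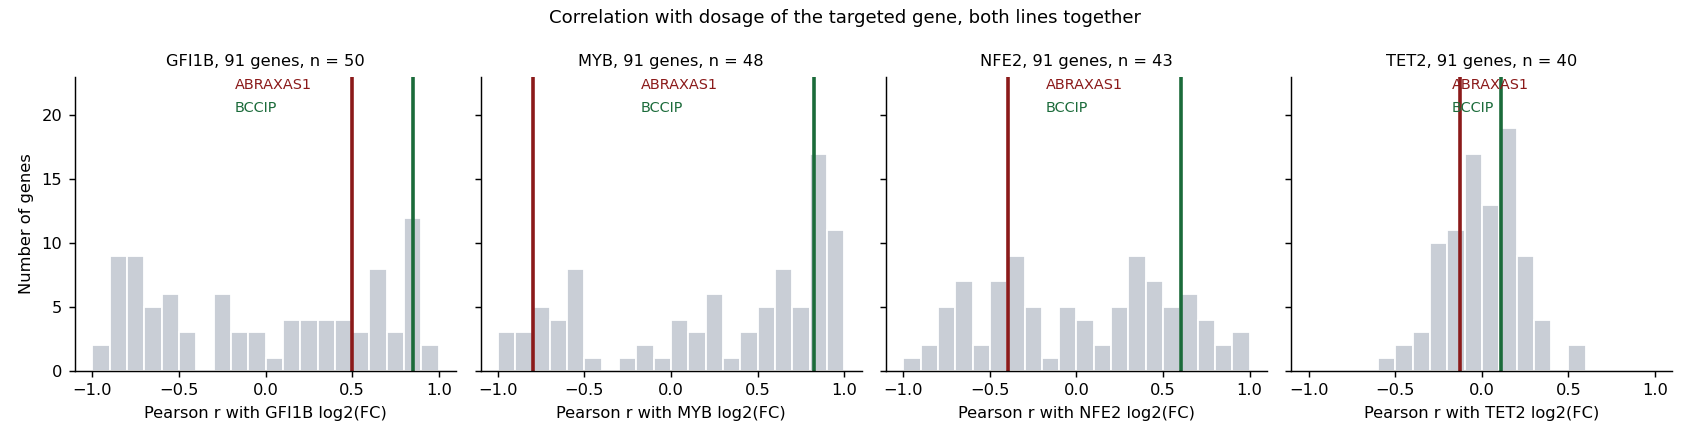
Histograms of Pearson's r with the dosage of each targeted gene over 91 genes, both lines together, with vertical lines at *ABRAXAS1* (red) and *BCCIP* (green). Both lie on the same side of 0 for *GFI1B*, at 0.50 and 0.85, and on opposite sides for *MYB*, at −0.80 and 0.83, where *GAPDH* and the median gene also fell with *MYB*.

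The form of the response was described by the difference in AIC between a linear and a sigmoid model, where a value above 2 favours the sigmoid. For *ABRAXAS1* it was −2.84 with *GFI1B* and −0.997 with *MYB*, so that a straight line described both as well as a sigmoid did. For *BCCIP* it was −3.77 with *MYB* and 2.12 with *GFI1B*, just above the limit. The last fell under the limit in each alternative, at −3.18 without sgRNAs of under 30 cells, 1.64 between 1 copy lost and 1 gained, and 0.482 with an intercept for each line. With *NFE2* the values were 9.74 for *ABRAXAS1* and 16.01 for *BCCIP*. The sigmoid of *BCCIP* had its centre at −0.020, where the 2 lines meet, and that of *ABRAXAS1* at 0.18, within CRISPRa. With an intercept for each line the values were 5.04 for *ABRAXAS1* and 3.60 for *BCCIP*. Both of these fits, and that of *BCCIP* without the intercepts, took the steepest sigmoid on the grid, 60. With the intercepts the centre for *BCCIP* was at 0.39, above the highest *NFE2* dosage of 0.28. Fits at the edge of the grid do not establish a sigmoid response to *NFE2*. Over all genes the share above 2 was 78.0% for *GFI1B*, 22.0% for *MYB* and 48.4% for *NFE2*, and the median value was 13.5, −1.20 and 1.83. Both genes were thus below the median gene with *GFI1B*.

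Set against each other in the same cells, the 2 genes parted with *MYB*. In CRISPRi, 15 of the 24 *MYB* perturbations had *ABRAXAS1* above 0 and *BCCIP* below 0, and the other 9 had both above 0 (7) or both below 0 (2). The r between the genes was −0.72 over these perturbations. In the same 24, *GAPDH* was below 0 in 21 and the median of the other genes in 20. These values are not set relative to either, and the fall of *BCCIP* was not distinguished from that common shift. With *GFI1B* in CRISPRi both were below 0 in 14 of 25 perturbations, and r was 0.30. With *NFE2* in CRISPRi r was −0.31 and with *TET2* it was −0.16. These r are descriptions, since both genes were read in the same cells and share the NTC cells.

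**Figure D5:**
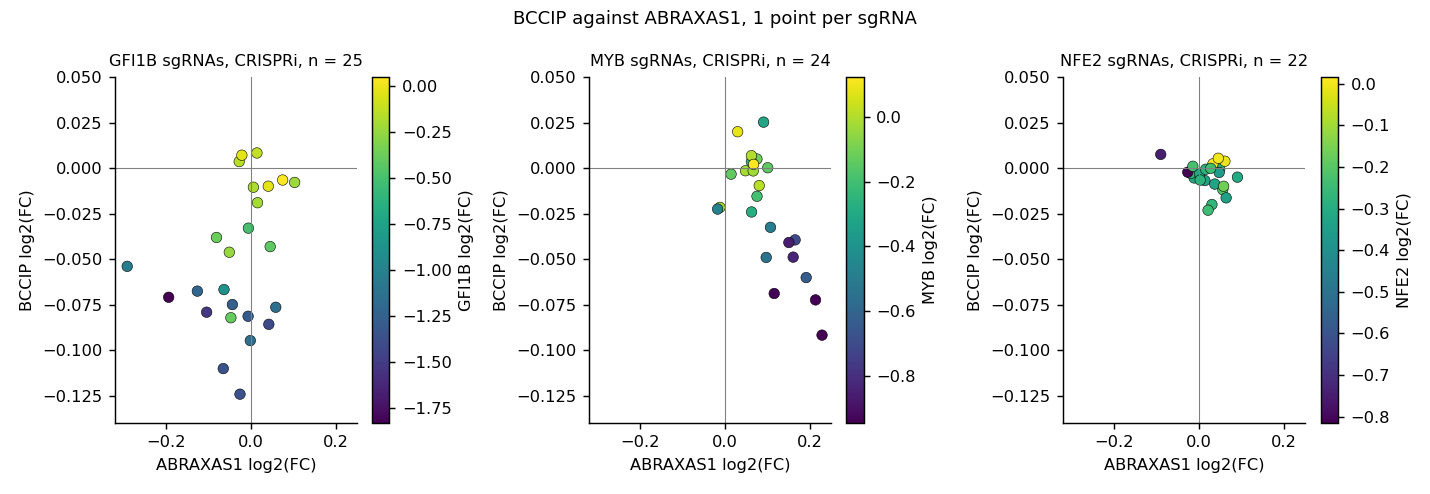
log2(FC) of *BCCIP* (vertical) against that of *ABRAXAS1* (horizontal) in CRISPRi, 1 point per sgRNA, coloured by the log2(FC) of the targeted gene. With *MYB* sgRNAs the points run from the centre to the lower right as *MYB* falls (r = −0.72), and with *GFI1B* sgRNAs they run downward with *ABRAXAS1* on both sides of 0 (r = 0.30). *GAPDH* and the median gene also fell with *MYB* in these perturbations.

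Over the 141 perturbations of *GFI1B*, *MYB* and *NFE2*, with each gene centred within *cis* gene and line, the 3 of 87 genes most like *ABRAXAS1* were *ALAS2*, the first enzyme of erythroid heme synthesis (r = 0.44), *RHD*, the Rh blood group antigen (r = 0.43), and *SLC25A37*, which carries iron into mitochondria (r = 0.42). Relative to the median gene, r was 0.55 for *ALAS2*, 0.48 for *RHD* and 0.53 for *SLC25A37*, which were then 1st, 6th and 2nd. The 3 most like *BCCIP* were *CAV2*, a caveolar coat protein (r = 0.62), *PITX1*, a homeodomain factor (r = 0.61), and *HMGA1*, a chromatin protein (r = 0.57). Relative to the median gene *PITX1* was 1st with r = 0.60, and *CAV2* and *HMGA1* dropped to 9th and 21st, with r of 0.34 and 0.22.

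The 250 bases before the start of *ABRAXAS1* in RefSeq (GRCh38.p14, chromosome 4, 83485101 to 83485350) were searched on both strands for the letters AACTG of a MYB site, AAATCA of a GFI1 site and TGAGTCA of an NFE2 site. They held 0 of each, while 34.1%, 11.6% and 4.2% of 35116 promoter windows of that length held at least 1. This says only that these letters are not in that window. The window lies inside the gene as annotated in GENCODE, which reaches 83523348, and 3 annotated exons overlap it. Starts farther upstream were not searched.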

How the data were processed

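The authors processed the cDNA reads with Cell Ranger for a targeted panel, kept cells with 1 sgRNA, left 1 NTC sgRNA of CRISPRa out and compared cells in Seurat. The deposited log2 fold changes of each gene over NTC cells were used as given, with cells of both lanes together. The methods text gives a natural log and the column name gives log2, and log2 was taken; a constant was added before the log, so changes of low genes are understated. P-values over cells were not used, and counts per cell were not analysed here, so depth is given as cells per sgRNA.

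Correlations with dosage, differences from *TET2* sgRNAs and slope differences between lines (Freedman-Lane) were tested by 100000 two-sided permutations of perturbations, on all genes, with Benjamini-Hochberg adjustment over 364, 540 and 364 tests at 0.05. The AIC counted 3 parameters for the line and 5 for the sigmoid, fitted on a grid of 81 by 45 values. Genes named are *ABRAXAS1*, *BCCIP*, the *cis* genes, *GAPDH*, *LHX3* and the 3 genes most like each member; 80 of 91 CRISPRi perturbations shared 1 value of *LHX3*. GFI1B_5, GFI1B_8, GFI1B_20 and the neighbouring genes were named after their values or positions were seen. The members and lists were chosen with earlier results of these data known. The code was tested on simulated data. The work used scipy 1.17.1, numpy 2.4.6, matplotlib 3.10.9 and pandas 2.3.3 under Python 3.11.15.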

Additional observations from a re-analysis of the deposited data

Results flagged for a closer look

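The slope of *ABRAXAS1* on *MYB* dosage differed between the lines, with CRISPRa minus CRISPRi at −0.29 (−0.14 in CRISPRi, −0.43 in CRISPRa), and this difference did not pass the test without the sgRNA MYB_12 in CRISPRa.

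The slope of *ABRAXAS1* on *NFE2* dosage differed between the lines in sign, with CRISPRa minus CRISPRi at −0.43 (0.12 in CRISPRi, −0.31 in CRISPRa), and the adjusted p was 0.0677 (permutation test) without the overlapping sgRNAs NFE2_16 and NFE2_17 in CRISPRi.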

How the results depend on the processing

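No paired analysis was possible because the replicate numbers of the labels belong to libraries of pooled cells and number no perturbation. A match of the same sgRNA across the lines was not used. With 1 culture per line and shared NTC cells, the spread between cultures is unknown. Of 114 alternative values of r, 82 kept their direction and side of the threshold, 13 kept only the direction, 11 with *NFE2* changed sign, and so did 8 with *TET2*, where neither gene passed in any setting. Where no cause is named the cause was not tested.

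Within 1 line, with fewer perturbations, r no longer passed the test for *ABRAXAS1* with *GFI1B* in CRISPRa (0.45) and *NFE2* in CRISPRa (−0.46), and for *BCCIP* with *GFI1B* in CRISPRa (0.15). With *NFE2*, r changed sign for *ABRAXAS1* in CRISPRi (0.60) and centred within line (0.12), and for *BCCIP* in CRISPRi (−0.017), in CRISPRa (−0.17) and centred (−0.072). Centred and permuted within line, r passed the test for *ABRAXAS1* with *MYB* (−0.64) and *GFI1B* (0.41), and for *BCCIP* with *MYB* (0.77) and *GFI1B* (0.70). Related genes numbered 37 for *MYB* in CRISPRa (74 over both lines), 29, 27 and 37 for *NFE2* in CRISPRi, in CRISPRa and centred (59), and 2 and 3 for *TET2* in CRISPRa and centred (10).

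With all other sgRNAs of the line as the reference in place of *TET2*, differences passed the test for *ABRAXAS1* with *GFI1B* in CRISPRi (−0.075) and CRISPRa (0.051) and *NFE2* in CRISPRa (−0.050), and for *BCCIP* with *NFE2* in CRISPRa (0.013). That reference holds the sgRNAs of the other *cis* genes, so its mean moves with their effects. For *ABRAXAS1* with *GFI1B* in CRISPRi the reference mean was 0.046, against 0.015 for *TET2*. For *BCCIP* with *NFE2* in CRISPRi it was −0.025, against 0.0033. On that reference *BCCIP* with *MYB* in CRISPRi (−0.0031) lost its call. With *NFE2* in CRISPRi *BCCIP* changed sign (0.020) and passed the test in that opposite direction (adjusted p = 0.0261, permutation test). Against *TET2*, *BCCIP* with *NFE2* in CRISPRi lost its call without attenuated sgRNAs (−0.0056) and by medians (−0.0040), and *BCCIP* with *NFE2* in CRISPRa passed when weighted by cells (0.012). The AIC difference of *BCCIP* with *GFI1B* was −3.18 with at least 30 cells, 1.64 between 1 copy lost and 1 gained and 0.482 with an intercept per line.

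The following were chosen after seeing the data. Without NFE2_16 and NFE2_17 in CRISPRi, r with *NFE2* was 0.18 for *ABRAXAS1* and 0.43 for *BCCIP*, and the slope difference of *ABRAXAS1* was −0.36. Values relative to the median gene and then to *GAPDH* are given in pairs. In CRISPRi, r was 0.41 and 0.40 for *ABRAXAS1* with *GFI1B*, 0.59 and 0.55 with *NFE2*, 0.30 and 0.29 for *BCCIP* with *MYB*, and 0.21 and −0.28 with *NFE2*. In CRISPRa, r was −0.43 and −0.46 for *ABRAXAS1* with *NFE2*, 0.34 and 0.28 for *BCCIP* with *MYB*, and −0.0061 and −0.23 with *NFE2*. Differences from *TET2* were −0.052 and −0.053 for *ABRAXAS1* with *NFE2* in CRISPRa, −0.0018 and −0.00087 for *BCCIP* with *MYB* in CRISPRi, and −0.0071 and −0.0014 with *NFE2* in CRISPRi. The slope difference of *ABRAXAS1* on *GFI1B* passed relative to *GAPDH* (0.26), which itself fell as *GFI1B* rose in CRISPRa. Related genes numbered 30 and 31 for *NFE2* in CRISPRi, and in CRISPRa 26 and 24 for *MYB*, 28 and 21 for *NFE2*, and 1 and 1 for *TET2*.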
